A study of Mus musculus with 72 samples.

Results

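The livers of male mice under chronic circadian misalignment were compared with the livers of male control mice at 1 clock time, 16:00. The 6 libraries, 3 misaligned and 3 control, were picked by sex, treatment and clock time as the labels give them, out of 72 libraries in the series. The misaligned group was male, wild type and C57bl6, 8 to 16 weeks old, and went through a misalignment paradigm of unstated schedule. The control group was male, wild type, C57bl6 and of the same age range, and went through the control paradigm. All mice of both groups were housed under 12 h of light and 12 h of dark, and all were switched from chow to high-fat food (42% of its calories were fat) when the paradigm began, so the controls are not chow-fed mice. The labels do not say how the stated clock time related to the light cycle of a misaligned mouse on the day of collection. Each library came from whole liver, and the series names its 3 replicates per group and clock time biological. Misaligned and control females at 16:00, and misaligned and control males at 00:00, 04:00, 08:00, 12:00 and 20:00, of the same strain, age range and diet, served to ask whether a difference belonged to males or to this clock time.

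In mammals the circadian clock is a transcriptional loop found in nearly every cell. BMAL1 (encoded by Arntl), paired with CLOCK or NPAS2, binds E-box sequences and switches on genes that include its own repressors, the PER and CRY proteins, and the nuclear receptors REV-ERB alpha and beta (Nr1d1 and Nr1d2). The REV-ERBs compete with activating ROR receptors at ROR elements, so genes with those elements, Arntl among them, run opposite to Nr1d1 over the day, and in liver this loop drives daily rhythms of lipid, glycogen, amino acid and xenobiotic metabolism that are also shaped by feeding time.

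The 6 libraries held 11797001 to 12224808 counts, with 18031 to 18872 genes detected, and no pair of replicates had identical counts. Of all genes in the table, 15066 of 27846 were tested. The log2 difference between the groups of 3 had a standard error of 0.24 in the median gene. The summed level of 9 hepatocyte markers lay between 89610 and 92340 CPM (counts scaled to a common library total with TMM factors) in misaligned livers, against 94760 to 131900 CPM in control livers. Summed endothelial markers lay between 246 and 288 CPM in misaligned livers, against 298 to 365 CPM in control livers. With TMM factors the groups did not overlap for either sum, but both overlapped when libraries were scaled by total counts alone. The groups overlapped with TMM factors for the summed markers of cholangiocytes, macrophages, stellate cells, lymphocytes, neutrophils, erythroid cells, adipocytes, exocrine pancreas and gut. Scaled by total counts, summed lymphocyte markers did not overlap, at 33.6 to 47.9 CPM in misaligned livers, against 19.2 to 32.15 CPM in control livers. None of the markers tested was called by edgeR (3 had an unadjusted p below 0.05), and Lep of the adipocyte list and Ctrb1 and Prss2 of the pancreatic list had no count in any of the 6 livers. In whole liver, fewer cells of a type and less RNA per cell cannot be told apart.

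Genes of the clock loop were among those that differed most between misaligned and control livers. Nr1d1 and Dbp were 16.6-fold and 15.2-fold higher in misaligned livers, and Arntl and Cry1 were 8.96-fold and 7.49-fold lower. Over all genes, 154 of 15066 were called at an adjusted p below 0.05 (1.02%). Of these, 63 were higher in misaligned livers (0.418%) and 91 were lower (0.604%). In all, 27 of the genes that rose had a log2 difference above 1, and 57 of those that fell had one below -1. Groups did not overlap for 147 of the 154, while over all tested genes 13.3% had groups that did not overlap. The smallest adjusted p belonged to Pxmp4, which encodes a peroxisomal membrane protein, at 76.3, 61.1 and 72.4 CPM in misaligned livers, against 128, 162 and 151 CPM in control livers. Its log2 difference was -1.07 ± 0.17 (SE; edgeR adjusted p = 0.00121).

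The count of called genes depended on which libraries set the spread, and no called named gene changed direction in any alternative run. With all 72 libraries in 1 fit there were 154 calls, in a fit of the 36 male libraries alone 0 genes were called (1817 had an unadjusted p below 0.05, against 2171 with all libraries), in a fit of the 6 compared libraries alone 13 genes were called (11 of them among the 154), and with DESeq2 281 were called. Leaving out misaligned liver 1, 2 or 3 gave 22, 15 or 396 calls, and leaving out control liver 1, 2 or 3 gave 375, 22 or 33 calls. Scaling by total counts instead of TMM moved the median of all genes by 0.16 on the log2 scale and the split to 233 higher and 79 lower, against 63 higher and 91 lower with TMM. Of 39 named genes called in the full fit, 8 were also called from the 6 libraries alone. They were Arntl, Nfil3, Nr1d1, Cry1, Cyp2b10, Dbp, Hacl1 and Slc5a6.

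**Figure D1:**
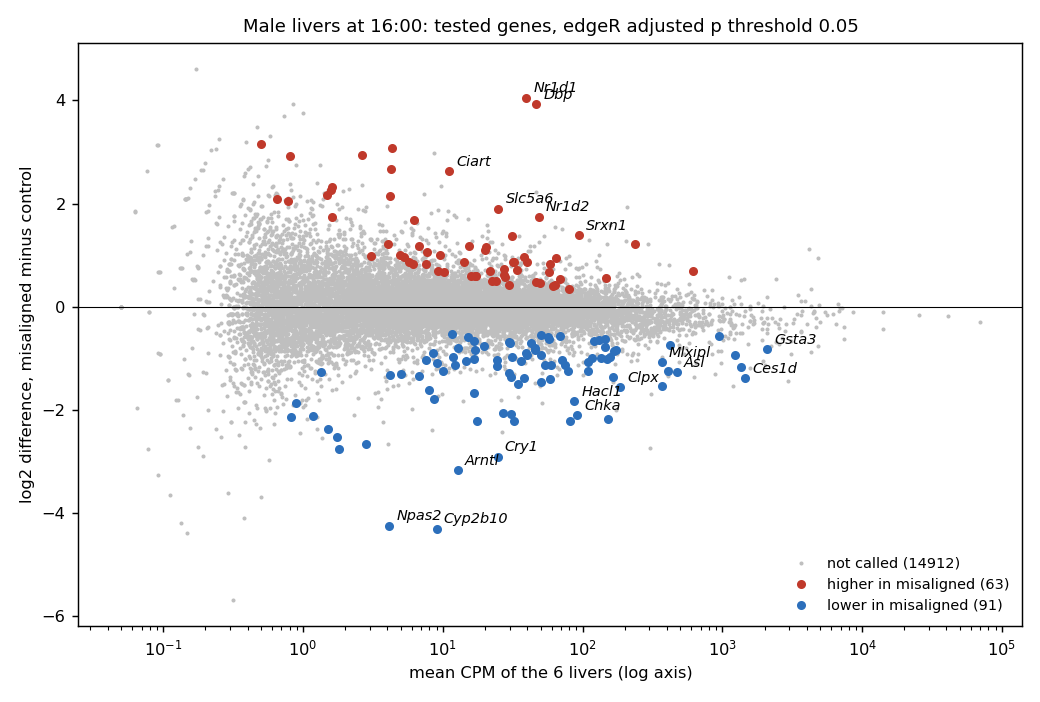
Log2 difference (misaligned minus control, vertical axis) against the mean CPM of the 6 male livers at 16:00 (horizontal log axis) for 15066 tested genes. The 63 genes that rose are red, the 91 that fell are blue, and labelled names are genes described in the text, with Nr1d1 and Dbp at the top and Cyp2b10 and Npas2 at the bottom.

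The windows shown here are those of 4 of the clock genes in which a motif of the loop was found. With them, genes with the same motif can be set against their levels. Windows of Clock, Nr1d2, Per1, Per3, Bhlhe41 and Tef also held a motif and are not shown. They are 300 base promoter windows from RefSeq (GRCm38.p6), from 250 bases before to 50 bases after a gene's start, on the gene's strand and 5′ to 3′. Capitals mark the E-box CACGTG, the ROR element core AGGTCA (on the other strand TGACCT) or the D-box TTANGNAA, each searched on both strands. The windows are of Ciart (chr3:95882179-95882478, minus strand), with 3 E-boxes; Cry1 (chr10:85185005-85185304, minus strand), with 1 E-box; Nfil3 (chr13:52980990-52981289, minus strand), with 1 ROR element core; and the second of 2 windows of Arntl (chr7:113207261-113207560, plus strand), with 1 ROR element core and 1 D-box.
Ciart: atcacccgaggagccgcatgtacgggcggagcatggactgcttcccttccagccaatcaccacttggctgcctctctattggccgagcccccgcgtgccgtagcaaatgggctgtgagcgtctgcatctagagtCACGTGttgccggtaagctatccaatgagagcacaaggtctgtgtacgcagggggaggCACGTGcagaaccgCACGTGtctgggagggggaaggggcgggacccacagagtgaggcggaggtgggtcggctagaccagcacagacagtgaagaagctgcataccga
Cry1: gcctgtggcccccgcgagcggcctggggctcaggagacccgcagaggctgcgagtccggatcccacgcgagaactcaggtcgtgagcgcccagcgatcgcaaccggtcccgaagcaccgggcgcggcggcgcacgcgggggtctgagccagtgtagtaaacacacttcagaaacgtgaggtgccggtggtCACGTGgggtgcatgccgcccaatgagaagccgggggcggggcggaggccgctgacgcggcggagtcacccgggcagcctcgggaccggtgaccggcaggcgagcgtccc
Nfil3: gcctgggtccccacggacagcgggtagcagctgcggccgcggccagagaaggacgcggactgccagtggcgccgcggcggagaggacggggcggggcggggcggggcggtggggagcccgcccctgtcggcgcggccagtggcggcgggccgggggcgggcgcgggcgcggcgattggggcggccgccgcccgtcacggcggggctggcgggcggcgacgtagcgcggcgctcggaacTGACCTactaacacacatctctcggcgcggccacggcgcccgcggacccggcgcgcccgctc
Arntl: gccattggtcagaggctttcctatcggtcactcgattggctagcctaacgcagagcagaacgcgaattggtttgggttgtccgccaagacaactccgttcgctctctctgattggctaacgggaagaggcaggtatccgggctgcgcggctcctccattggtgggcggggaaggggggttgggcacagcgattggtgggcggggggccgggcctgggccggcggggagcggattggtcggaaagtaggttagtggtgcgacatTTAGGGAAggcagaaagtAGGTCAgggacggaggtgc

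The E-box was present in 7.15% of all 32851 windows, the ROR element core in 16.3% and the D-box in 11.5%. Windows were at hand for 52 of the genes that rose and 72 of those that fell. Among genes with a window, an E-box was found for 21.2% of those that rose and 15.3% of those that fell, against 11.5% of tested genes. The ROR element core was found for 23.1% and 23.6%, against 15.7% of tested genes, and the D-box for 13.5% and 22.2%, against 10.4%. These are shares of genes and not of windows, so they are not comparable with the shares of all 32851 windows. Genes sharing a motif did not share a direction, since Ciart rose and Cry1 fell with an E-box, and Nr1d2 rose while Nfil3 and Arntl fell with a ROR element core. The called clock genes Nr1d1, Dbp and Npas2 had no E-box, ROR element core or D-box in their windows. A match is a run of letters and not a measured binding site.

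Of 18 core clock genes described here, all of them tested, 8 were called (44.4%, against 1.02% of all genes), 4 higher and 4 lower in misaligned livers. Among the activators, Arntl (ENSMUSG00000055116, chromosome 7, 113207465 to 113314126, plus strand) had 2.65, 3.00 and 2.01 CPM in misaligned livers, against 20.4, 22.7 and 26.1 CPM in control livers. Its log2 difference was -3.16 ± 0.66 (SE; edgeR adjusted p = 0.0106), and every misaligned liver lay far below every control liver. Npas2 (ENSMUSG00000026077, chromosome 1, 39193731 to 39363236, plus strand), which can take the place of CLOCK, had 0.16, 0.847 and 0.175 CPM in misaligned livers, against 4.23, 16.1 and 3.09 CPM in control livers. The log2 difference of Npas2 was -4.24 ± 0.97 (SE; edgeR adjusted p = 0.0205), and control liver 2 was well above the other two controls. Clock itself had 21.6, 24.5 and 18.4 CPM in misaligned livers, against 22.7, 34.4 and 38.8 CPM in control livers, and its groups overlapped, with a log2 difference of -0.57 ± 0.17 (SE; edgeR adjusted p = 0.077).

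Both REV-ERB genes, whose products repress Arntl, rose. Nr1d1 (ENSMUSG00000020889, chromosome 11, 98767932 to 98775333, minus strand) had 75.5, 63.5 and 84.3 CPM in misaligned livers, against 6.38, 4.15 and 2.79 CPM in control livers, a log2 difference of 4.05 ± 0.79 (SE; edgeR adjusted p = 0.00566). Nr1d2 (ENSMUSG00000021775, chromosome 14, 18204054 to 18239127, minus strand) had 63.1, 80.5 and 79.8 CPM in misaligned livers, against 21.4, 10.9 and 34.6 CPM in control livers, a log2 difference of 1.74 ± 0.41 (SE; edgeR adjusted p = 0.0213). Both were thus higher in each misaligned liver than in any control liver. Rora, which encodes an activating ROR receptor, was not called, at -0.28 ± 0.21 (SE; edgeR adjusted p = 0.547), and its groups overlapped.

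Among the repressors, Cry1 (ENSMUSG00000020038, chromosome 10, 85131700 to 85185064, minus strand) had 5.45, 5.54 and 6.39 CPM in misaligned livers, against 33.5, 58.6 and 38.2 CPM in control livers. Its log2 difference was -2.90 ± 0.52 (SE; edgeR adjusted p = 0.00251), and the 3 misaligned livers were close to each other and well below all controls. Nfil3 (ENSMUSG00000056749, chromosome 13, 52967209 to 52981073, minus strand), a repressor that competes at D-boxes, had 10.6, 11.8 and 12.7 CPM in misaligned livers, against 50.1, 48.8 and 49.1 CPM in control livers. This gave a log2 difference of -2.08 ± 0.41 (SE; edgeR adjusted p = 0.00644), with little spread within either group. Ciart (ENSMUSG00000038550, chromosome 3, 95878503 to 95882251, minus strand), also called CHRONO, a repressor of BMAL1, had 13.5, 17.9 and 25.6 CPM in misaligned livers, against 4.64, 0.902 and 3.59 CPM in control livers, a log2 difference of 2.63 ± 0.68 (SE; edgeR adjusted p = 0.0408). It was higher in each misaligned liver than in any control liver.

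The other repressors were not called. Per3 had 20.2, 26.2 and 44.9 CPM in misaligned livers, against 12.6, 11.6 and 14.2 CPM in control livers. Per3 had a log2 difference of 1.25 ± 0.44 (SE; edgeR adjusted p = 0.157), although the groups did not overlap. Log2 differences were 0.60 ± 0.50 (SE; edgeR adjusted p = 0.602) for Per1 and -0.44 ± 0.46 (SE; edgeR adjusted p = 0.696) for Per2, and -0.33 ± 0.21 (SE; edgeR adjusted p = 0.493) for Cry2. Control liver 2 had the lowest Per1, at 12.5 CPM, and the highest Per2, at 62.4 CPM, of the 6 livers. Bhlhe41 was at 1.88 ± 0.74 (SE; edgeR adjusted p = 0.216) and Bhlhe40 at 0.03 ± 0.36 (SE; edgeR adjusted p = 0.975), and for these 5 genes the groups overlapped.

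PAR bZIP factors carry the clock's signal to metabolic genes through D-boxes, and only Dbp of the 3 was called. Dbp (ENSMUSG00000059824, chromosome 7, 45705088 to 45710203, plus strand) had 79.7, 59.8 and 122 CPM in misaligned livers, against 7.38, 3.61 and 6.18 CPM in control livers. This was a log2 difference of 3.92 ± 0.84 (SE; edgeR adjusted p = 0.0134), and the lowest misaligned liver was many times above the highest control. Tef was at 0.60 ± 0.29 (SE; edgeR adjusted p = 0.34) and Hlf at 0.00 ± 0.18 (SE; edgeR adjusted p = 0.996), with overlapping groups. Among single livers left out in turn, Cry1 kept the call each time. Nr1d1 and Dbp were not called without control liver 2 or 3, Arntl and Nfil3 not without misaligned liver 1 or 2, Npas2 and Nr1d2 not without misaligned liver 1 or 2 or control liver 2, and Ciart not without any 1 liver other than control liver 1.

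**Figure D2:**
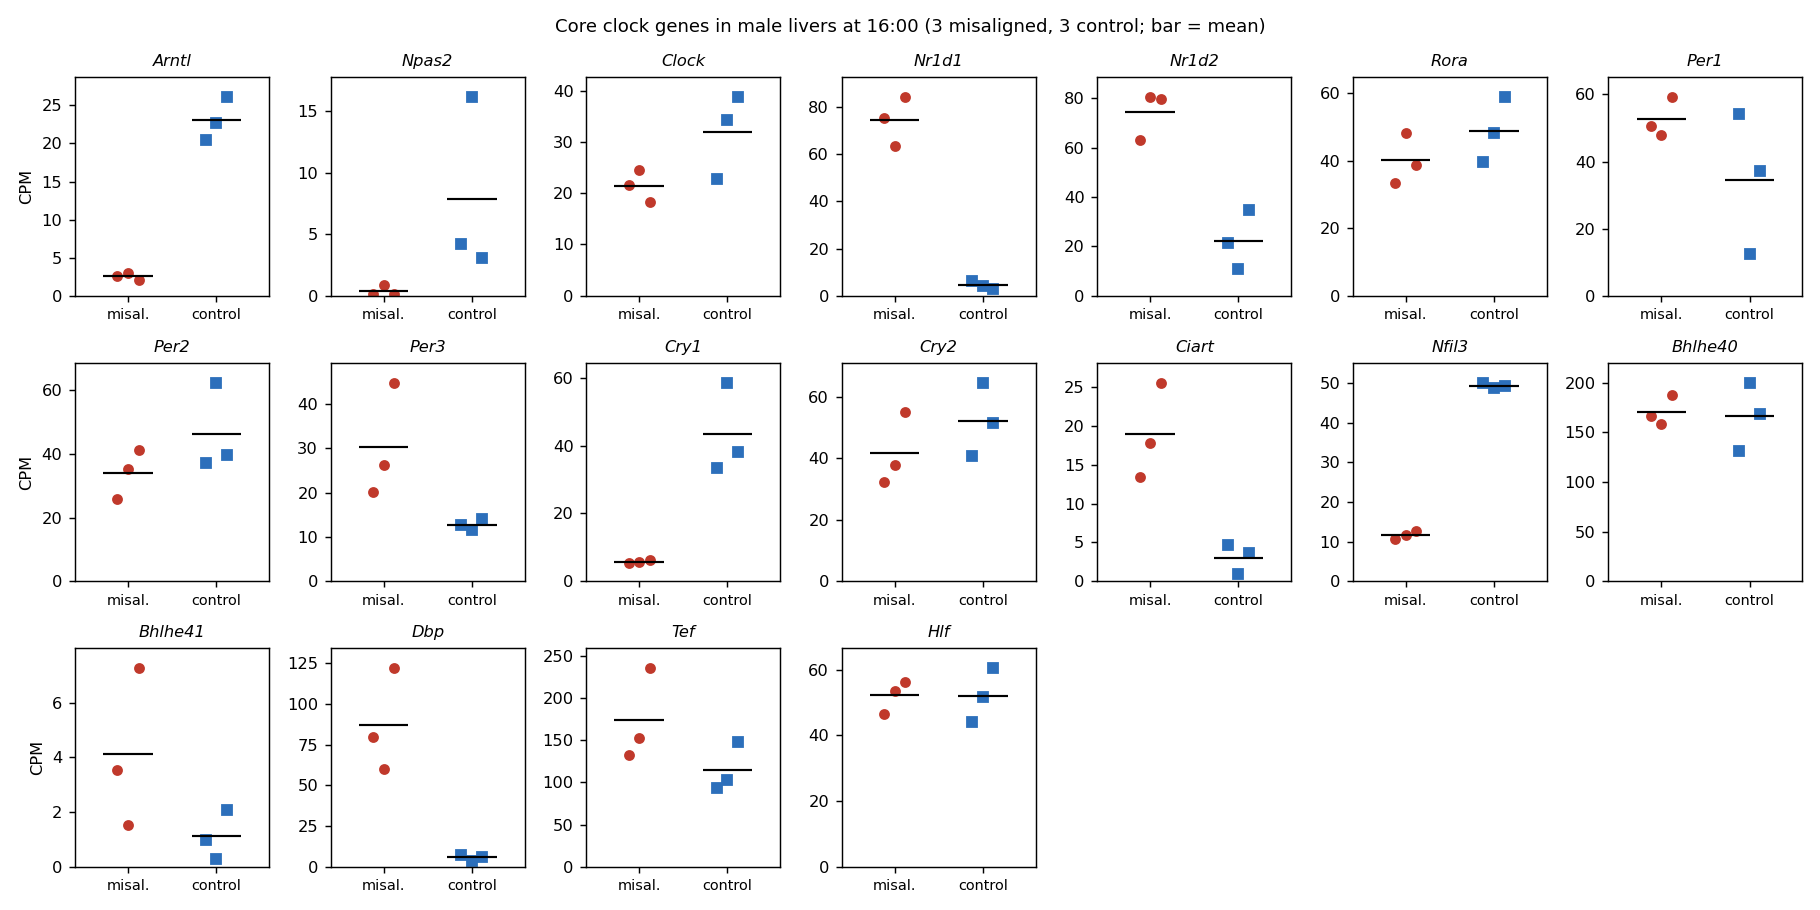
CPM of 18 core clock genes in male livers at 16:00, with 3 misaligned livers (red circles) left of 3 control livers (blue squares) in each panel, a bar at the group mean and each vertical axis starting at 0. The groups do not overlap for the 8 called genes or Per3, and they overlap for the other genes.

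Introns gave a second readout of the same libraries, from reads of mostly unspliced RNA. Of the 154 called genes, 132 had introns that could be tested, and the intron difference had the same sign in 125 of these. The 154 were chosen by their difference in these same livers. The share of matching signs over all genes was not counted, so the sign counts are a description. Among 53 genes that rose and had tested introns, 48 had the same sign and the median intron log2 difference was 0.53, and among 79 that fell, 77 had the same sign and the median was -0.9995. By introns alone, 33 of 11201 genes were called (0.295%), 6 higher (0.0536%) and 27 lower (0.241%), and 17 of the 33 were among the 154. Introns of Dbp had counts of 321, 247 and 304 in misaligned livers, against 12, 4 and 13 in control livers, a log2 difference of 4.75 ± 1.00 (SE; edgeR adjusted p = 0.0213). Introns of Arntl had counts of 7, 15 and 7 in misaligned livers, against 93, 138 and 129 in control livers, a log2 difference of -3.79 ± 0.77 (SE; edgeR adjusted p = 0.0126). Introns of Cry1 had counts of 3, 3 and 8 in misaligned livers, against 42, 64 and 39 in control livers, a log2 difference of -3.48 ± 0.66 (SE; edgeR adjusted p = 0.00567). In none of these genes did the intron counts of the groups overlap. Nr1d1 and Npas2 were also called by introns, whereas Nr1d2, Ciart and Nfil3 were not.

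Among 29 known outputs of the liver clock, 5 were called, all lower in misaligned livers, against 0.604% of all tested genes. The median log2 difference of the list was -0.05, or 0.10 under total-count scaling. The called genes were Chka, Ppard, Lonrf3, Leo1 and Avpr1a, the last pair named after their values were seen. Chka, choline kinase alpha, which starts phosphatidylcholine synthesis from choline, had 37.1, 45.3 and 21.2 CPM in misaligned livers, against 131, 185 and 131 CPM in control livers, a log2 difference of -2.11 ± 0.46 (SE; edgeR adjusted p = 0.0146). Ppard, a nuclear receptor of lipid metabolism, had 7.53, 4.77 and 6.47 CPM in misaligned livers, against 20.6, 56.6 and 9.77 CPM in control livers, a log2 difference of -2.21 ± 0.48 (SE; edgeR adjusted p = 0.0137). Control liver 2 stood far above the other controls for Ppard, and without it the log2 difference was -1.28 (edgeR adjusted p = 0.271). Leo1, a subunit of the PAF1 transcription complex, was at -1.02 ± 0.23 (SE; edgeR adjusted p = 0.0206), Avpr1a, a vasopressin receptor, at -1.80 ± 0.45 (SE; edgeR adjusted p = 0.0321), and Lonrf3 at -2.52 ± 0.52 (SE; edgeR adjusted p = 0.00881). Elovl3, a fatty acid elongase that is not in the named set, was at -2.73 ± 0.77 (SE; edgeR adjusted p = 0.0643) and was not called.

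On the list of gluconeogenesis, glycolysis and glycogen 2 of 27 tested members were called, both lower, against 0.604% of all genes. Of the 27, 12 had a positive difference and the median was -0.10, or 16 and 0.07 under total-count scaling. The called members were 2 glycogen genes. Ppp1r3c and Ppp1r3b both encode subunits that direct protein phosphatase to glycogen and promote its synthesis. Ppp1r3c had 18.3, 24.3 and 43.7 CPM in misaligned livers, against 62.2, 228 and 111 CPM in control livers, a log2 difference of -2.22 ± 0.54 (SE; edgeR adjusted p = 0.0266). Ppp1r3b had 141, 199 and 227 CPM in misaligned livers, against 309.8, 866 and 465 CPM in control livers, a log2 difference of -1.53 ± 0.40 (SE; edgeR adjusted p = 0.0435). Neither gene's groups overlapped, and control liver 2 was the highest of the 6 for both. G6pc, the last enzyme of glucose release, was at -0.92 ± 0.45 (SE; edgeR adjusted p = 0.337).

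In the lipogenesis list 1 of 26 genes was called, lower, against 0.604% of all genes. It was Mlxipl, which encodes the glucose-responsive factor ChREBP, at 199, 192 and 318 CPM in misaligned livers, against 394, 659.7 and 441 CPM in control livers. The difference in log2 was -1.08 ± 0.28 (SE; edgeR adjusted p = 0.0435). Fasn, fatty acid synthase, had a wide error at -1.45 ± 0.81 (SE; edgeR adjusted p = 0.403) and was not called. The median of the list was -0.42, or -0.26 under total-count scaling. Of 36 PPAR alpha and fasting targets and 24 genes of cholesterol synthesis and uptake, none was called by edgeR. Of these, 8 and 1 had an unadjusted p below 0.05, against 2171 of all 15066 tested genes.

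Hacl1, Clpx and Coq8a, which act in peroxisomes or mitochondria, fell. Hacl1, a peroxisomal lyase of fatty acid alpha-oxidation, had 34.1, 33.4 and 47.1 CPM in misaligned livers, against 109, 132 and 166 CPM in control livers, a log2 difference of -1.83 ± 0.33 (SE; edgeR adjusted p = 0.00251). Clpx, the unfoldase of the mitochondrial CLPXP protease, had 93.8, 125 and 63.9 CPM in misaligned livers, against 227, 263 and 343 CPM in control livers, a log2 difference of -1.55 ± 0.32 (SE; edgeR adjusted p = 0.00881). Coq8a, needed for coenzyme Q synthesis, had 231, 197 and 299 CPM in misaligned livers, against 391.5, 736 and 592 CPM in control livers, a log2 difference of -1.24 ± 0.30 (SE; edgeR adjusted p = 0.0261). All 3 genes were lower in each misaligned liver, and all 3 were also called by their introns. Clpx was the 1 gene called of 20 mitochondrial chaperones and proteases, against 0.604% of all genes called lower. Of 30 respiratory chain genes 0 had a positive difference, with a median of -0.16, and none was called by edgeR (3 at an unadjusted p below 0.05). Under total-count scaling 15 of these 30 were positive and their median was 0.00034.

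Of the called folate and amino acid genes given here, Mthfd1l alone rose and the others fell. Mthfd1l, a mitochondrial formate-producing enzyme, had 8.98, 8.39 and 3.24 CPM in misaligned livers, against 2.74, 0.812 and 0.996 CPM in control livers, a log2 difference of 2.15 ± 0.58 (SE; edgeR adjusted p = 0.0491). Asl, the argininosuccinate lyase of the urea cycle, had 233, 219 and 378 CPM in misaligned livers, against 528, 662 and 811 CPM in control livers, a log2 difference of -1.27 ± 0.33 (SE; edgeR adjusted p = 0.0405). Asl was thus lower and Mthfd1l higher in each misaligned liver than in any control liver. The call of Mthfd1l was lost with RLE factors, a replicate block, limma-voom or no filter, and that of Asl with no filter. In the list of 40 amino acid and urea cycle genes only Asl and Mthfd1l were called, against 1.02% of all genes. Of the 40, 8 had a positive difference, 18 had an unadjusted p below 0.05 and the median was -0.45, or -0.29 under total-count scaling. Of all 15066 tested genes, 7498 had a positive difference and 2171 had an unadjusted edgeR p below 0.05. Afmid, of the kynurenine route to NAD, was at -1.41 ± 0.35 (SE; edgeR adjusted p = 0.0321), and Tars, threonyl-tRNA synthetase, at -0.99 ± 0.22 (SE; edgeR adjusted p = 0.0167). Tars was the 1 gene called among 20 aminoacyl-tRNA synthetases, against 1.02% of all genes. Of these 20, 12 had a positive difference, with a median of 0.05, and 18 had one under total-count scaling, with a median of 0.22.

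Of 37 genes of xenobiotic metabolism 2 were called, both lower, against 0.604% of all genes. The median was -0.43 and 12 had a positive difference, or -0.26 and 15 under total-count scaling. Cyp2b10, a cytochrome P450 induced through the receptor CAR, had 0.641, 1.46 and 0.437 CPM in misaligned livers, against 16.7, 16.1 and 18.6 CPM in control livers, a log2 difference of -4.30 ± 1.01 (SE; edgeR adjusted p = 0.0223). Gsta3, a glutathione transferase, had 1475, 1279 and 1769 CPM in misaligned livers, against 2352, 2331 and 3304 CPM in control livers, a log2 difference of -0.82 ± 0.19 (SE; edgeR adjusted p = 0.0219). Ces1d, a carboxylesterase that hydrolyses triglycerides, had 715, 618 and 1092 CPM in misaligned livers, against 2035, 1597 and 2705 CPM in control livers, a log2 difference of -1.39 ± 0.27 (SE; edgeR adjusted p = 0.0049). Cyp2b10 was low in all misaligned livers, whereas Gsta3 and Ces1d remained abundant, and no group overlapped the other. These 3 genes have close paralogs, which can share reads.

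Akr1d1, the steroid reductase of bile acid synthesis, had 53, 100.4 and 125 CPM in misaligned livers, against 161, 262 and 292 CPM in control livers. The difference was -1.36 ± 0.34 (SE; edgeR adjusted p = 0.0341) in log2, and it was the 1 called gene of 20 in the bile acid list, against 0.604% of all genes called lower. In that list 2 had a positive difference and the median was -0.41, or 5 and -0.26 under total-count scaling. Summed hepatocyte markers were also lower in each misaligned liver with TMM factors (89610 to 92340 CPM, against 94760 to 131900 CPM in control livers), and their part in the lower metabolic lists was not tested. Over all tested genes the median log2 difference was -0.00156.

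Of all 15066 tested genes, 7498 had a positive difference and 2171 had an unadjusted edgeR p below 0.05. Of 23 cold-inducible and heat shock genes 3 had a positive difference, with a median of -0.53 (-0.35 under total-count scaling) and 10 at an unadjusted p below 0.05. In this list Fkbp4 alone, a cochaperone of HSP90, was called, against 0.604% of all genes called lower, at 133, 96.3 and 144 CPM in misaligned livers, against 202, 226 and 238 CPM in control livers. Its log2 difference was -0.83 ± 0.21 (SE; edgeR adjusted p = 0.0321). Other HSP90 partners were at -0.88 ± 0.26 (SE; edgeR adjusted p = 0.0747) for Stip1 and -0.59 ± 0.17 (SE; edgeR adjusted p = 0.0754) for Ahsa1. Serpina3m, a protease inhibitor from a family of close paralogs, was the 1 called acute phase gene of 30, against 0.604% of all genes called lower, at -0.75 ± 0.19 (SE; edgeR adjusted p = 0.0364).

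**Figure D3:**
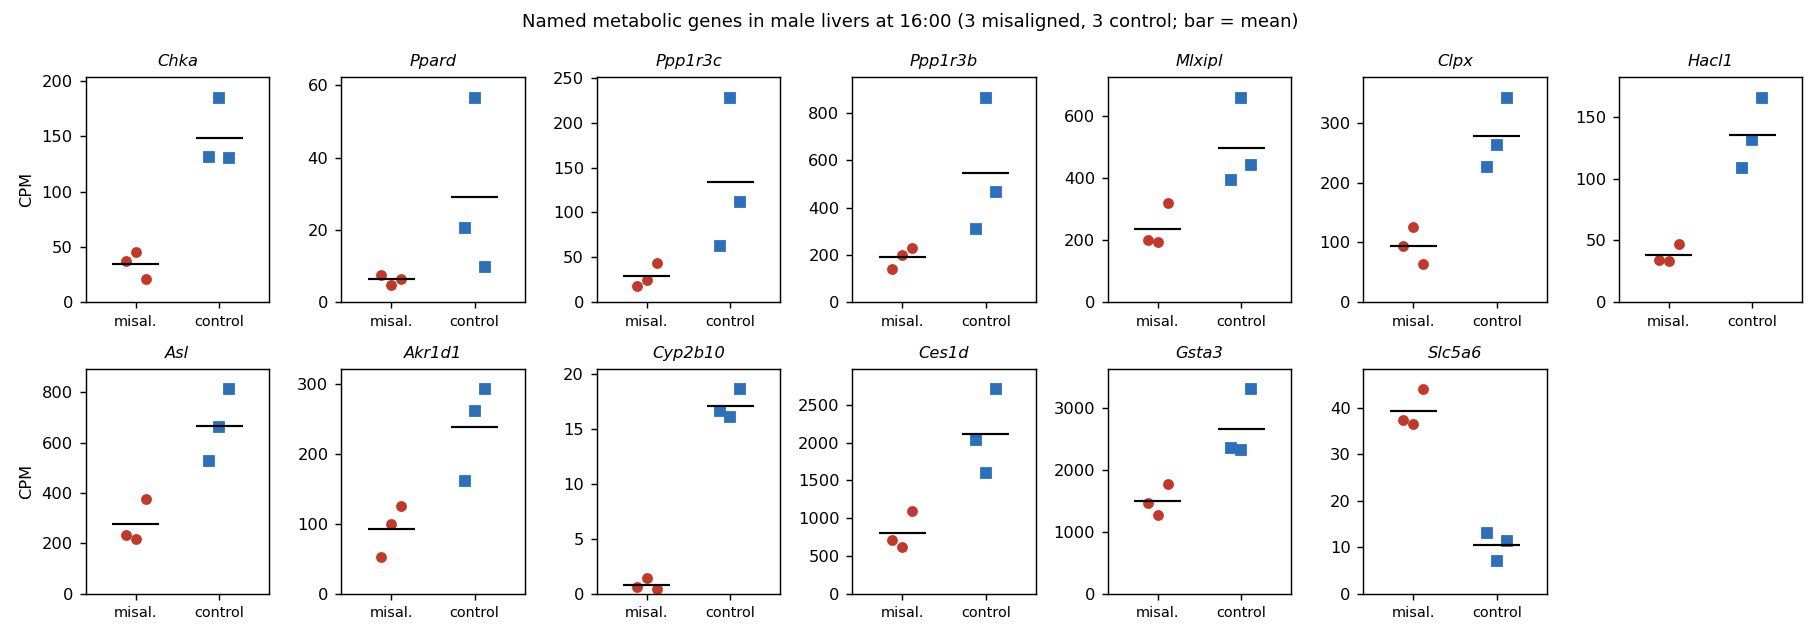
CPM of 13 named metabolic genes in male livers at 16:00, with 3 misaligned livers (red circles) left of 3 control livers (blue squares), a bar at the group mean and each vertical axis starting at 0. For 12 genes every misaligned liver lies below every control liver, and for Slc5a6 every misaligned liver lies above.

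Outside the clock loop, 8 named genes rose, Mthfd1l among them. Slc5a6, a sodium-dependent carrier of biotin and pantothenate, had 37.4, 36.6 and 44 CPM in misaligned livers, against 13.1, 7.04 and 11.5 CPM in control livers, a log2 difference of 1.90 ± 0.34 (SE; edgeR adjusted p = 0.00251). Srxn1, sulfiredoxin, an antioxidant enzyme, had 159.6, 173 and 74.5 CPM in misaligned livers, against 64, 46.5 and 44.9 CPM in control livers, a log2 difference of 1.39 ± 0.30 (SE; edgeR adjusted p = 0.0134). Scamp5, a secretory carrier membrane protein, was at 1.38 ± 0.30 (SE; edgeR adjusted p = 0.0145), and Gnai1, an inhibitory G protein subunit, at 1.69 ± 0.41 (SE; edgeR adjusted p = 0.0261). Each was higher in every misaligned liver than in any control. Gnat1, a G protein subunit known from rod cells, had 7.21, 5.16 and 9.62 CPM in misaligned livers, against 1.24, 0.812 and 1.4 CPM in control livers. Its log2 difference was 2.66 ± 0.72 (SE; edgeR adjusted p = 0.0491), and it was not called after any 1 of the 6 livers was left out. Cyp21a1, the steroid 21-hydroxylase, was at 3.07 ± 0.77 (SE; edgeR adjusted p = 0.0345), but misaligned liver 1 held 16.0 CPM against 3.15 to 4.00 CPM in the other two. Without that liver the Cyp21a1 difference was 1.97 (edgeR adjusted p = 0.302), and its duplicated copy can share reads. Rn7sk, the small nuclear 7SK RNA, was at 2.93 ± 0.69 (SE; edgeR adjusted p = 0.0213), with 10.9 CPM in misaligned liver 2, and 1.35 (edgeR adjusted p = 0.575) without that liver.

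The remaining fallen genes named were Slc17a8, a vesicular glutamate transporter, at -2.06 ± 0.40 (SE; edgeR adjusted p = 0.0049), Caln1 at -1.62 ± 0.31 (SE; edgeR adjusted p = 0.0049), Asap2 at -1.25 ± 0.32 (SE; edgeR adjusted p = 0.0403) and Lingo4 at -2.66 ± 0.65 (SE; edgeR adjusted p = 0.0269). For Slc17a8 control liver 2 held 74.6 CPM, against 22.4 and 33.6 CPM in the other controls. It was not called without control liver 2 or without misaligned liver 2. Lingo4 had 0.561, 0.616 and 1.14 CPM in misaligned livers, against 3.9, 6.4 and 4.38 CPM in control livers, and misaligned liver 3 was the highest misaligned liver and control liver 2 the highest control. Of the 39 called genes that are named, Pxmp4, Slc5a6, Cry1 and Hacl1 kept the call when any 1 of the 6 livers was left out, and the other 35 lost it without at least 1 liver.

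Of 30 cell cycle genes 25 had a positive difference, with a median of 0.81. None was called by edgeR, while 10 had an unadjusted p below 0.05. Of all 15066 tested genes, 7498 had a positive difference and 2171 had an unadjusted edgeR p below 0.05. Ccne1, a cyclin of S phase entry, averaged 3.03 CPM in misaligned livers and 0.902 CPM in control livers, a log2 difference of 1.72 ± 0.51 (SE; edgeR adjusted p = 0.0781). Ccnb2, a mitotic cyclin, averaged 4.37 CPM in misaligned livers and 0.829 CPM in control livers, at 2.35 ± 0.73 (SE; edgeR adjusted p = 0.0956). Ccnd1, the G1 cyclin, was far more abundant, with means of 76.1 CPM in misaligned livers and 29.1 CPM in control livers, at 1.38 ± 0.54 (SE; edgeR adjusted p = 0.206). Of 30 interferon response genes, 26 had a positive difference, the median was 0.50 and none was called, with 10 at an unadjusted p below 0.05. These counts hold for the listed members only. Called genes outside the lists were not sorted by process, so cell cycle or interferon genes may be among them.

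No gene was called in the lists of the unfolded protein response, sex-biased and growth hormone genes, glucocorticoid targets, immediate early genes, insulin and IGF signalling, clock kinases, ribosome biogenesis, ribosomal proteins or hepatocyte identity factors. In these lists 1, 4, 1, 0, 3, 2, 3, 1 and 0 genes had an unadjusted edgeR p below 0.05, in that order. The lists had 31, 31, 20, 23, 24, 20, 25, 33 and 15 tested members, in the same order. Over all 15066 tested genes, 2171 had such a p and 1.02% were called.

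The levels at 16:00 were then set beside those of the other clock times in males. Nr1d1 in misaligned livers at 16:00 averaged 74.5 CPM, whereas in control males it was lowest at 16:00, at 4.44 CPM, and highest at 04:00, at 79.6 CPM. Arntl in misaligned livers at 16:00 averaged 2.55 CPM, against 23.1 CPM in controls at 16:00. This lay near the control means of 1.77 CPM at 08:00, 3.76 CPM at 12:00 and 4.27 CPM at 04:00. Cyp2b10 averaged 0.847 CPM in misaligned livers at 16:00, below the lowest control mean of the day, 2.05 CPM at 04:00. For these genes the misaligned livers at 16:00 had levels seen in controls at 1 or more of the clock times from 04:00 to 12:00, or lower.

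Over the 18 core clock genes, the mean absolute log2 distance of each liver from the male control mean at each clock time was computed. Misaligned livers 1 and 2 were nearest to controls at 04:00, at 0.369 and 0.372, and misaligned liver 3 was nearest to controls at 08:00, at 0.269. Their distances to the controls at 16:00 were 1.69, 1.48 and 1.92. Control livers 1 and 3, each left out of its own mean, were nearest to 16:00, at 0.513 and 0.525, whereas control liver 2 was slightly nearer to 20:00, at 0.649, than to 16:00, at 0.723. Over these genes the 3 misaligned livers at 16:00 thus lay closest to control livers taken at 04:00 or 08:00, and control liver 2 stood somewhat apart from the other controls. Distances of misaligned livers 1, 2 and 3 to the controls at 12:00 were 0.581, 0.472 and 0.726, and liver 2 was at 0.483 from 08:00. Control livers lay 0.513 to 0.723 from the mean of the other controls at 16:00. Whether the misaligned livers were nearer to 04:00, 08:00 or 12:00 beyond this spread was not tested.

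Of the 27 named genes that fell, 21 had their highest male control mean at 16:00, and of the 12 that rose, 8 had their lowest there. The control livers at 16:00 enter both the choice of these genes and this count, so it is a description. Misaligned males did not agree this well with each other at every clock time. At 16:00 their Nr1d1 varied from 63.5 to 84.3 CPM, whereas at 04:00 it was 3.76, 97.6 and 11.1 CPM, and at 20:00 it was 62.9, 5.29 and 14.7 CPM.

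**Figure D4:**
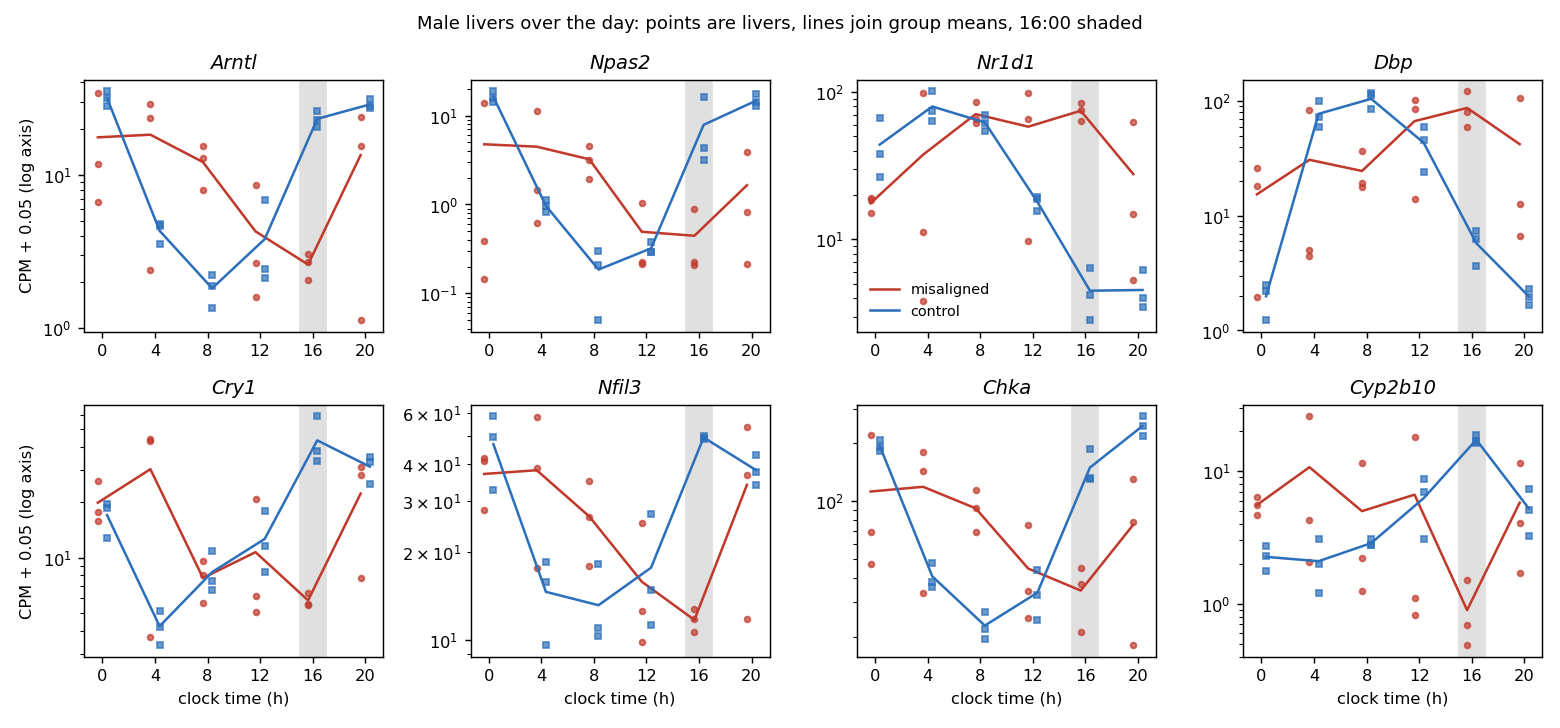
CPM plus 0.05 on a log axis against stated clock time in hours for 8 genes in male livers, with misaligned livers in red circles drawn just left of control livers in blue squares, lines through the group means and 16:00 shaded. At 16:00 misaligned and control livers are separate for all 8 genes, and the misaligned livers of Nr1d1 spread more widely at 04:00 and 20:00 than at 16:00.

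Whether the effect of misalignment at 16:00 differed from its mean over the other 5 clock times in males was tested directly. It differed for 230 genes (1.53%), 85 with a more positive effect at 16:00 (0.564%) and 145 with a more negative one (0.962%). Of the 154 genes called at 16:00, 128 were among them, which share the 16:00 livers with this test. Leaving out misaligned liver 1, 2 or 3 gave 51, 37 or 805 genes, and leaving out control liver 1, 2 or 3 gave 1037, 60 or 57. Of the 18 clock genes 6 were called, and they were Arntl, Npas2, Clock, Nr1d1, Cry1 and Nfil3. The difference in effect was -2.42 ± 0.45 (SE; edgeR adjusted p = 0.0029) for Nfil3 and -3.35 ± 0.56 (SE; edgeR adjusted p = 0.000712) for Cry1. For Dbp it was 3.00 ± 0.88 (SE; edgeR adjusted p = 0.066) and was not called. The mean of the other times joins effects of opposite sign, since Npas2 was at 4.40 at 08:00 (edgeR adjusted p = 0.0997) and -3.20 at 20:00 (edgeR adjusted p = 0.00854).

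At 20:00, in other mice, several of these genes differed in the same direction as at 16:00. Of the 39 named genes called at 16:00, 9 were called in the same direction at 20:00, where 13.2% of all genes were called, 7.8% higher and 5.43% lower. They were Nr1d1, Nr1d2, Dbp, Ciart, Gnat1, Npas2, Chka, Clpx and Asap2, and Asl was called in the opposite direction. Dbp was at 4.44 (edgeR adjusted p = 0.00232), Ciart at 3.31 (edgeR adjusted p = 0.00366), Nr1d1 at 2.63 (edgeR adjusted p = 0.0191) and Nr1d2 at 2.09 (edgeR adjusted p = 0.00201). Arntl, Cry1 and Nfil3 were not called at 20:00, at -1.11, -0.49 and -0.17. At 00:00, 04:00, 08:00 and 12:00 none of the 39 was called in the direction of 16:00, while Ces1d at 00:00, Cry1 at 04:00, and Clpx, Chka and Tars at 08:00 were called in the opposite direction. In males, counts of genes called higher and lower were 25 and 30 at 00:00, 1 and 0 at 04:00, 32 and 23 at 08:00, 0 and 0 at 12:00, 63 and 91 at 16:00, and 1175 and 818 at 20:00.

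Females at the same clock time gave a comparison with other mice. There 0 genes were called by edgeR, with 882 at an unadjusted p below 0.05 and a smallest adjusted p of 0.0672. The difference of the effect between males and females was called for 48 genes (0.319%), 18 more positive (0.119%) and 30 more negative in males (0.199%). Leaving out male misaligned liver 1, 2 or 3 gave 23, 31 or 45 genes, and leaving out male control liver 1, 2 or 3 gave 139, 3 or 28. Of the 154 genes called in males, 32 were among the 48. The male livers by which the 154 were chosen also enter this test of the sexes. Of the 154, 61 had the same sign in females while 93 had the opposite sign. The share of opposite signs over all tested genes was not counted, so the overlap and the sign counts are a description.

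Among the clock genes, 5 differed between the sexes in their response. For Npas2 the log2 difference between misaligned and control livers was -4.24 in males and 2.58 in females, a difference between sexes of -6.83 ± 1.22 (SE; edgeR adjusted p = 0.00465). Arntl was at -3.16 in males and 0.93 in females, a difference of -4.10 ± 0.86 (SE; edgeR adjusted p = 0.0135). Dbp was at 3.92 in males and -1.09 in females, a difference of 5.02 ± 1.21 (SE; edgeR adjusted p = 0.0433). In these genes the female estimate had the opposite sign to the male one. Cry1 and Nr1d1 also differed between the sexes, by -3.27 ± 0.69 (SE; edgeR adjusted p = 0.0135) and 4.64 ± 1.09 (SE; edgeR adjusted p = 0.0354). Nfil3, Nr1d2 and Ciart, called in males, were not called in this test, with adjusted p-values from edgeR of 0.0561, 0.0728 and 0.0825.

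Outside the clock, Pxmp4, Ppard, Clpx, Coq8a and Asap2 had the smallest p-values of the sex test beside Npas2. Ppard was at -2.21 in males and 1.57 in females, a difference of -3.78 ± 0.66 (SE; edgeR adjusted p = 0.00432). Clpx was at -1.55 in males and 0.75 in females, a difference of -2.31 ± 0.44 (SE; edgeR adjusted p = 0.0093). Cyp2b10, Hacl1 and Slc5a6 were not called in this test, with adjusted p-values from edgeR of 0.1, 0.0728 and 0.0728.

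Interferon response genes had medians of 0.50 in males and -0.59 in females, and 4 of 30 differed between the sexes, against 0.319% of all genes. Named because the count was small and after their values were seen, they were Gbp6, Tgtp1, Psmb9 and Tap1. Tgtp1, an interferon-induced GTPase, was at 1.94 in males and -3.27 in females (edgeR adjusted p of the difference = 0.0135). Markers of blood and immune cells, none of them called, also had higher median log2 differences in males than in females. These were 0.38 in males and -0.85 in females for 12 lymphocyte markers, 0.49 and -0.83 for 9 neutrophil and platelet markers, 0.84 and -0.80 for 7 erythroid markers, and 0.07 and -0.51 for 12 Kupffer cell and macrophage markers. Their part was not tested.

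**Figure D5:**
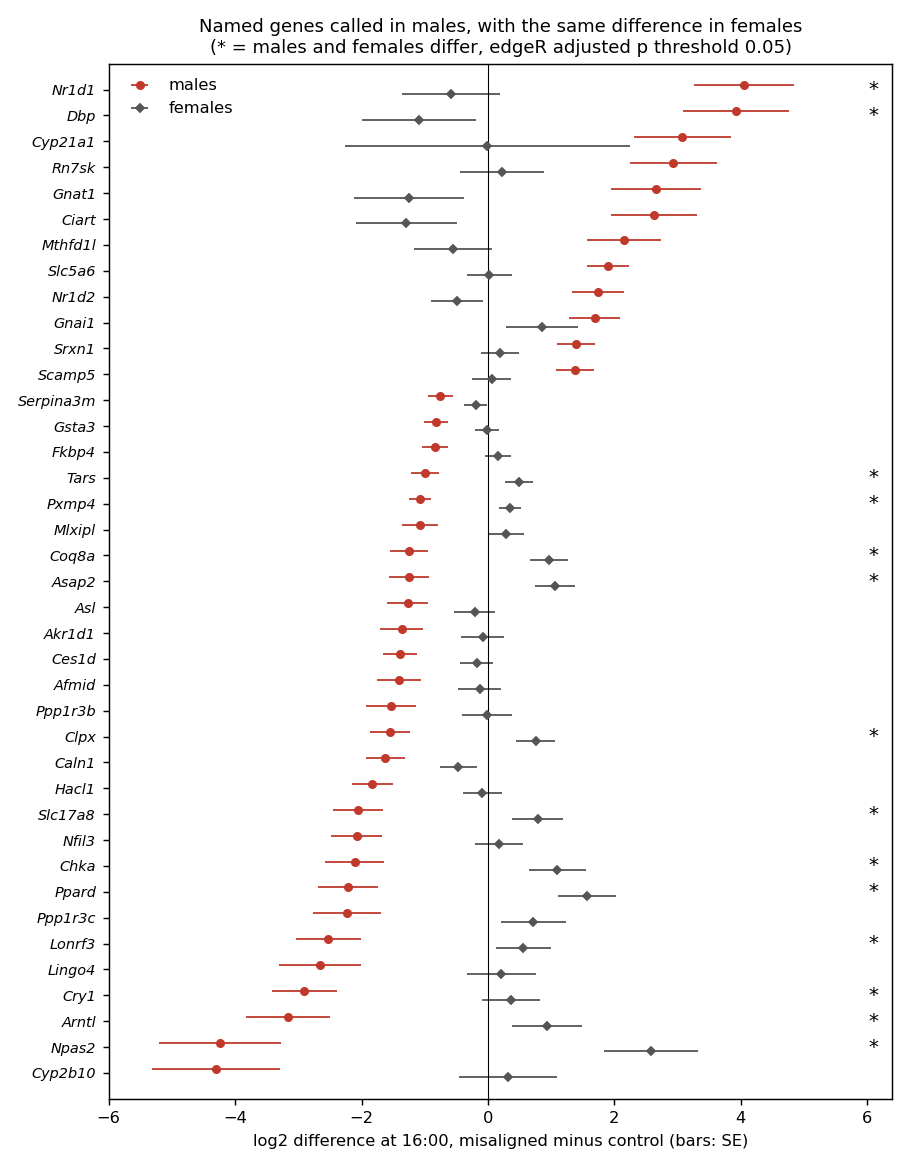
Log2 difference between misaligned and control livers at 16:00 (horizontal axis, bars are SE) for the 39 named genes called in males, in males (red circles) above females (grey diamonds). Asterisks mark genes whose difference between the sexes was called, among them Nr1d1, Dbp, Cry1, Arntl and Npas2.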

How the data were processed

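Poly(A) RNA of whole livers was sequenced from stranded libraries as paired reads of 150 bp, per the labels' protocols. Reads were aligned with STAR 2.6.0c to GRCm38, per the submitters' processing notes. The authors deposited whole-number counts per gene and intron for reads assigned to 1 feature (MIN) or ambiguous reads too (MAX). Library totals were nearly equal, 11551524 to 12529963, so they carry little information on sequencing depth. Whether the authors resampled reads to a common total is not given in the sources used here. All 72 columns were matched to samples by name.

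Genes were filtered with filterByExpr, scaled by TMM and fitted with edgeR 4.0.16 (R 4.3.3, limma 3.58.1) by robust quasi-likelihood, with 1 mean for each of 24 groups and 48 residual degrees of freedom. Contrasts were misaligned minus control males at 16:00, its difference from the mean of the other 5 clock times, and its difference from females. Tests were 2-sided, with Benjamini-Hochberg adjustment over all tested genes at 0.05. CPM used TMM-scaled totals. Standard errors were derived from the F statistic. The sense intron counts, summed per gene over 193696 of 200985 introns assignable to 1 gene, were fitted the same way. The procedure was tested on simulated data in which each gene had the same spread in all groups. That test does not cover groups of unequal spread.

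Named genes were the 12 called genes with the largest rise and the 12 with the largest fall at a mean of at least 2 CPM, the core clock genes, up to 3 called genes per list with the smallest p, and the 6 with the smallest p in each difference test, without predicted genes and pseudogenes. A few genes of this rule and of the lists are not reported here, and counts over named genes and lists leave them out. Members and the 30 gene lists and 11 marker lists (755 of 760 genes in the table) were chosen with earlier results of these data known. Positions are from GENCODE vM21 (GRCm38), in which all 49 named genes were found, and promoters are from RefSeq, for 39 of the 49. Alternatives were RLE factors, no filter, MAX counts, a replicate block, smaller fits, single libraries left out, limma-voom and DESeq2 1.42.0, with total-count scaling added after the data were seen. Exon counts were not used here. Figures used Python 3.11.15 and matplotlib 3.10.9.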

Additional observations from a re-analysis of the deposited data

Results flagged for a closer look

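The effect of misalignment differed between males and females at 16:00 for 48 genes by the edgeR test of that difference. In log2, the effect in males minus that in females was -6.83 for Npas2, -4.10 for Arntl, -3.27 for Cry1, 4.64 for Nr1d1 and 5.02 for Dbp. Outside the clock it was -3.78 for Ppard, -2.31 for Clpx, -2.31 for Asap2, -2.20 for Coq8a and -1.42 for Pxmp4.

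The effect in males at 16:00 differed from its mean over the other 5 clock times for 230 genes. In log2, the effect at 16:00 minus that mean was -4.72 for Npas2, -3.78 for Arntl, -0.69 for Clock, -3.35 for Cry1, -2.42 for Nfil3 and 3.63 for Nr1d1. Further genes were Hacl1 at -2.19, Caln1 at -2.05, Ces1d at -1.71 and Pxmp4 at -1.20. At 20:00 alone, Npas2 at -3.20, Clock at -0.59 and Nr1d1 at 2.63 had the sign of 16:00 and were called (edgeR adjusted p = 0.00854, 0.0186 and 0.0191), whereas at 08:00 Npas2 was at 4.40 and Clock at 1.12. These genes were picked because their p was smallest or because they belong to the clock loop.

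Among antisense counts, which no comparison used, Gnat1 had 106, 49 and 103 in misaligned livers, against 25, 48 and 33 in control livers. These are raw counts, not scaled to a library total as the gene levels in CPM are. As raw counts the groups touch but do not overlap, and no test was made. Whether they overlap after scaling was not computed.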

How the results depend on the processing

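No named gene that was called changed direction under any alternative run, but the counts of called genes moved widely, and the cause was not tested. The runs differed in the libraries fitted, in the genes adjusted for, in the scaling or in the method. For males at 16:00, with 154 calls, 63 higher and 91 lower, no filter gave 69 (24 and 45), total counts 312 (233 higher), the 6 libraries alone 13 (3 and 10), DESeq2 281 (129 and 152), limma-voom 40 higher, and the male libraries alone 0 (0 and 0). Leaving out libraries gave 0 to 396 calls, 0 to 182 higher and 0 to 224 lower. For the sex difference, with 48 calls, DESeq2 gave 93 (38 and 55), limma-voom 30 (5 higher) and total counts 19 lower, and leaving out libraries gave 0 to 139, 0 to 75 higher and 0 to 64 lower. For the difference between clock times, with 230 calls, no filter gave 117 (39 and 78), total counts 835 (720 higher), DESeq2 416 (169 and 247) and the male libraries 4 (1 and 3), and leaving out libraries gave 6 to 1037, 2 to 562 higher and 3 to 481 lower. RLE factors and MAX counts gave 150 and 167 calls at 16:00. Of the 39 named called genes, 39 kept the call with DESeq2, 38 with RLE factors, 38 with MAX counts, 38 with total counts, 28 with limma-voom, 24 with no filter, 8 with the 6 libraries and 0 with the male libraries.

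Same-numbered misaligned and control livers had correlations of their deviations of 0.53, -0.08 and 0.57. Differently numbered livers had correlations from -0.63 to 0.31. These values do not settle whether the replicate numbers pair the livers, and the main fit did not pair them. A replicate block gave 139 calls (57 higher and 82 lower), 137 of them among the 154, and 36 of the 39 named genes kept the call.

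With 3 livers a group the median standard error was 0.24 in log2, and a missed call does not show equal levels.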

Other observations

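The 36 listed fasting and lipid droplet genes that PPAR alpha is known to control held no call by edgeR at 16:00 in males (8 at an unadjusted p below 0.05), and their differences pointed both ways. Acsl1, an acyl-CoA synthetase outside that list, was called at -0.94 ± 0.24 (SE; edgeR adjusted p = 0.0364), with overlapping groups. Acot1, an acyl-CoA thioesterase, averaged 21.8 CPM in misaligned livers and 79.7 CPM in control livers, a log2 difference of -1.87 ± 0.51 (SE; edgeR adjusted p = 0.0551). Cyp4a10, a fatty acid hydroxylase, averaged 347 CPM in misaligned livers and 895 CPM in control livers, at -1.37 ± 0.46 (SE; edgeR adjusted p = 0.129). Plin2, a lipid droplet coat protein, averaged 1333 CPM in misaligned livers and 900 CPM in control livers, at 0.57 ± 0.24 (SE; edgeR adjusted p = 0.251). Cpt1a, the gatekeeper of mitochondrial fatty acid oxidation, was at 0.44 in males and -0.62 in females, and the sexes differed (edgeR adjusted p = 0.0354).

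Among regulators of glucose and choline metabolism, Pfkfb3, which raises glycolytic flux, averaged 30.9 CPM in misaligned livers and 11.2 CPM in control livers, at 1.47 ± 0.46 (SE; edgeR adjusted p = 0.0979). Gpcpd1, which releases choline from glycerophosphocholine, averaged 94.5 CPM in misaligned livers and 32.6 CPM in control livers, at 1.54 ± 0.53 (SE; edgeR adjusted p = 0.142). Of 33 cytosolic ribosomal protein genes 1 had a positive difference with TMM, with a median of -0.15, and 16 had one under total-count scaling, with a median of -0.00204. The genes in these paragraphs were chosen after their values were seen.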
